A study of Arabidopsis thaliana with 6 samples.

Results

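The endoplasmic reticulum (ER) is where a plant cell folds the proteins it secretes or places in its membranes, and 32 genes of that machinery are described here out of 33977 gene IDs counted. They were chosen by function and locus, with earlier results of these data known. They are calnexins and calreticulins (5 genes), protein disulfide isomerases (9), ER oxidoreductins (2), the ER form of HSP90 with J proteins and a partner (5), the HRD1 and Derlin machinery of ER-associated degradation (4), and other genes known as targets of ER stress (7). The BiP chaperones and the transcription factor genes BZIP60 and NAC103 were not among them. The samples are mRNA libraries of entire Arabidopsis thaliana plants, accession Col-0, taken after 10 days at 22 °C in long days (16 h light, 8 h dark). The 3 control samples (labelled Mock) grew on half-strength MS medium alone, and the 3 treated samples grew from seed on the same medium with 1.5 mM CsCl, the salt of cesium, an alkali metal ion close to potassium. All 6 samples share the accession and carry no transgene or mutation that the labels name.

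A glycoprotein entering the ER is held by the lectin chaperones calnexin and calreticulin while it folds. Protein disulfide isomerases join its cysteines, and ER oxidoreductins return the isomerases to their oxidised state. A protein that fails to fold is passed by HRD1, its partner HRD3 and Derlins to the cytosol for degradation. When unfolded proteins build up, for example under tunicamycin, which blocks N-glycosylation, the transcription factors bZIP28 and bZIP60 raise many of these transcripts together, so their level is commonly read as a sign of ER stress. The series title directs attention to that response under cesium.

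Of the 32 genes 0 were past edgeR's test for a difference between CsCl and control plants, which 2.16% of all tested genes passed, with 1 of 32 at an unadjusted p under 0.05 and 0 by DESeq2 or limma-voom. Their summed level was 2153 ± 61.9 CPM in control plants and 2144 ± 23.2 CPM with CsCl (CPM, a gene's count relative to its TMM-scaled library; SD, n = 3 per group), a ratio of 0.996. In bulk samples such as these, fewer cells of a type and less RNA per cell cannot be told apart. For 30 of the 32 genes the 95% interval of the fold change lay inside a 1.5-fold rise or fall, and for 31 inside a 2-fold one. The same held for 75.6% and 90.03% of all tested genes. Of the 77 tested genes in 5 further ER lists, described below, 96.1% lay inside a 1.5-fold change. The width of an interval depends on count level, by which the 32 genes were not matched to the others. The ER HSP90 gene SHD, among the most abundant, stood at 359 ± 14.4 and 360.1 ± 8.56 CPM. By contrast BIP3, an inducible ER chaperone gene outside the 32, rose from 0.479 ± 0.118 to 1.69 ± 0.192 CPM.

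All 32 genes passed the filter on low counts and were among the 21005 tested. By edgeR's quasi-likelihood test with Benjamini-Hochberg adjustment, 0 of 32 were higher and 0 lower at an adjusted p under 0.05, against 0.843% of all tested genes higher and 1.32% lower. DESeq2 called 0 of 32 (3.14% of all genes) and limma-voom 0 (2.08% of all genes). At an unadjusted p under 0.05 there was 1 of 32, against 14.4% of all genes. The groups did not overlap for 3 genes, or 9.38%, against 19.8% of all tested genes, with 2 of the 3 higher (10.0% of all genes) and 1 lower (9.75%). The median log2 fold change (CsCl over control) was 0.0072 over the 32 genes and 0.0052 over all genes, and 19 of 32 were above 0. The adjusted p-values of the 32 ran upward from 0.318.

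A miss of the threshold does not show that a gene was level in both groups, so the estimate needed to pass is given as well. A true change of that size could still miss the threshold. The smallest estimated fold change past the threshold was taken from each gene's standard error. It had a median of 1.24 over the 32 genes and 1.33 over all tested genes. It was 1.18 for SHD and CRT1b, 1.66 for ERDJ3A, 1.85 for SARA1A and 3.45 for SEC31A. The spread between libraries of a group was low as well. The median coefficient of variation of the 32 genes was 5.86% in control and 5.51% in CsCl libraries. For all tested genes it was 7.66% over both groups. Both measures depend on count level, by which the 32 genes were not matched to the others. Of the 32, 2 were under 5 CPM in mean.

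**Figure D1:**
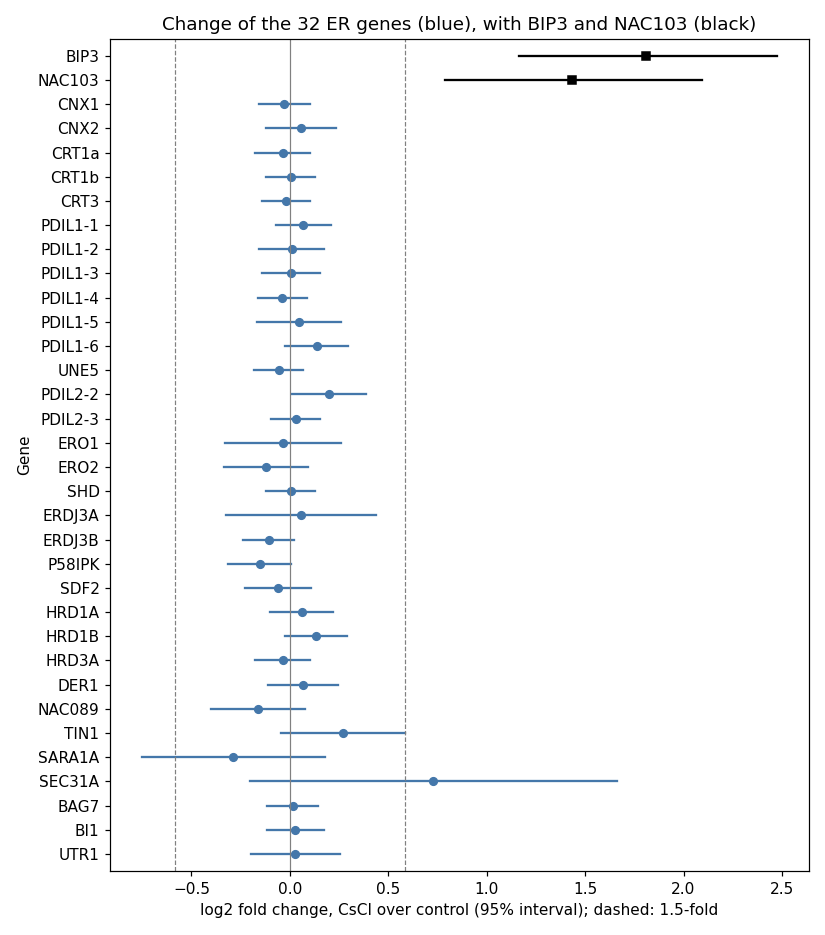
Log2 fold change (CsCl over control) on the x axis with its 95% interval for each of the 32 genes (blue circles, grouped by role) and for BIP3 and NAC103 (black squares), from the edgeR fit of 3 against 3 libraries; dashed lines mark a 1.5-fold change. The blue points gather around 0 with narrow intervals except SARA1A and SEC31A, and the intervals of BIP3 and NAC103 lie to the right of the upper bound of 31 of the 32.

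Many genes of this machinery are switched on through short promoter elements. The ER stress response element ERSE-I was searched as CCAAT and CCACG with 9 bases of any kind between them, ERSE-II as ATTGG and CCACG with 1 base between them, and the unfolded protein response element UPRE as TGACGTGG or TGACGTGA, on both strands, from 250 bases before to 50 after each annotated gene start of RefSeq's TAIR10.1. The last 5 letters of ERSE-I can overlap a UPRE on the other strand where CCACG goes on as CCACGTCA. ERSE-I letters were found at 7 of the 32 genes, or 21.9%, against 0.397% of 27443 protein-coding genes. UPRE letters were found at 6, or 18.8%, against 2.16%. The letters of ERSE-II were at 0 of 32 and at 0.0692% of coding genes, and the shorter core TGACGT, which every UPRE contains, at 34.4% and 9.19%. In all 10 of 32 had ERSE-I or UPRE letters, and 3 genes, CNX1, PDIL1-1 and SHD, had both. A match describes the letters and does not show that a factor binds there.

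The 140 bases before the annotated start are shown for the 6 genes that have ERSE-I or UPRE letters within that stretch, because these are the elements through which the ER stress response is known to act. Capitals mark the fixed letters of ERSE-I (CCAAT and CCACG, or CGTGG and ATTGG on the other strand) and all letters of UPRE.
CRT1a: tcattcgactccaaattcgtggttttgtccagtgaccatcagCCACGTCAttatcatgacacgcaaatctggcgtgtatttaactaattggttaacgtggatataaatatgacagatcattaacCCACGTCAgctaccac
PDIL1-2: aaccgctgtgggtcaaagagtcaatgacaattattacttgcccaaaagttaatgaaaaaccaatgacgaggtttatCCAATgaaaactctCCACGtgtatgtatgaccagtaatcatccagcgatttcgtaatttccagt
SHD: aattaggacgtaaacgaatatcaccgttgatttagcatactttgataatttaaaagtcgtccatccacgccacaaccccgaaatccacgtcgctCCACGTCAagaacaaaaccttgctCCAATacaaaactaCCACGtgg
P58IPK: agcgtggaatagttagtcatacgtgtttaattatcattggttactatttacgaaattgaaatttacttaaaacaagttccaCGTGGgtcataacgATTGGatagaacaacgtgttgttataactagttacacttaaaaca
HRD3A: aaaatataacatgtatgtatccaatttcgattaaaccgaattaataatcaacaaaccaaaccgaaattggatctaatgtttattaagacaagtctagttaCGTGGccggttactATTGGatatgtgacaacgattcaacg
TIN1: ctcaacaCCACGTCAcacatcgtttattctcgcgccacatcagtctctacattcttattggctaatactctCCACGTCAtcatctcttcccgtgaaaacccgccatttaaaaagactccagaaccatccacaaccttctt
In TAIR10.1 these stretches lie at chr1:21092710-21092849 on the minus strand (CRT1a), chr1:29126508-29126647 on the plus strand (PDIL1-2), chr4:12556059-12556198 on the minus strand (SHD), chr5:749961-750100 on the plus strand (P58IPK), chr1:6282145-6282284 on the minus strand (HRD3A) and chr5:25784264-25784403 on the plus strand (TIN1). CRT1a and TIN1 each show a pair of UPRE copies, SHD an ERSE-I and a UPRE, and the others an ERSE-I. The log2 fold changes of the 10 genes with ERSE-I or UPRE letters ran from -0.16 (NAC089) to 0.27 (TIN1) with a median of -0.012, and the 22 without them had a median of 0.021. BIP3 and NAC103, which did rise, held neither set of letters in the same window. Only exact letters were searched, so a missing match does not show that an element is absent. Whether these elements act on any of the genes here was not tested.

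**Figure D2:**
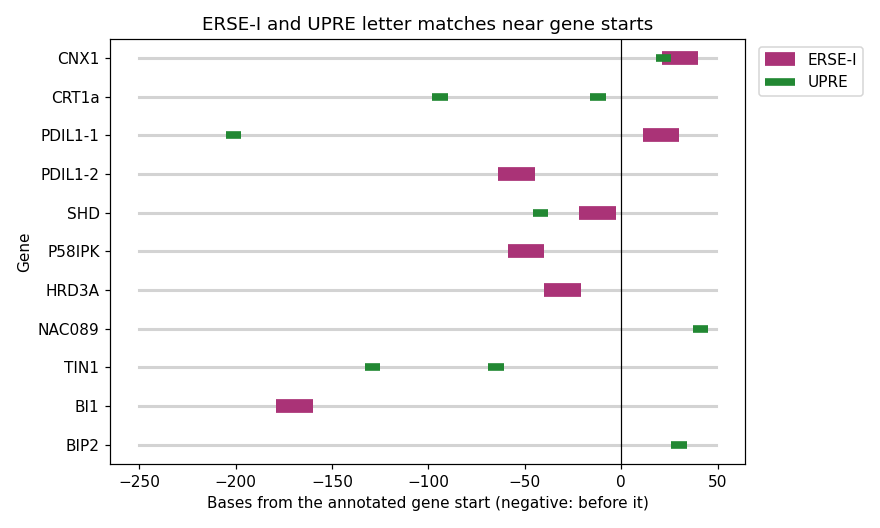
Position of ERSE-I (purple) and UPRE (green) letter matches, on either strand, in bases from the annotated gene start (x axis, negative before the start) for the 10 of 32 genes with a match and for the chaperone gene BIP2, which is not among the 32. Of the 7 ERSE-I matches, 4 lie in the 100 bases before the start, with those of CNX1 and PDIL1-1 just after it and that of BI1 further before it.

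Transcript levels spanned a wide range, which is compared here as CPM per kilobase of the longest annotated transcript. CNX1 (123), SHD (119) and CRT1a (118 CPM per kb, means of 6 libraries) led the order, and their library values overlapped one another. UNE5 followed at 80.5 and CRT1b at 71.5 CPM per kb, each apart from the gene above it in every library. BI1, BAG7 and PDIL1-4, at 63.8, 62.5 and 59.3 CPM per kb, each overlapped with the gene above, and PDIL1-4 stood apart from PDIL1-1 below it (46.3 CPM per kb). At the low end TIN1 (3.71), ERO1 (2.86), ERDJ3A (2.50) and SARA1A (2.48 CPM per kb) overlapped in sequence, and SEC31A (0.289 CPM per kb) stood apart below them.

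**Figure D3:**
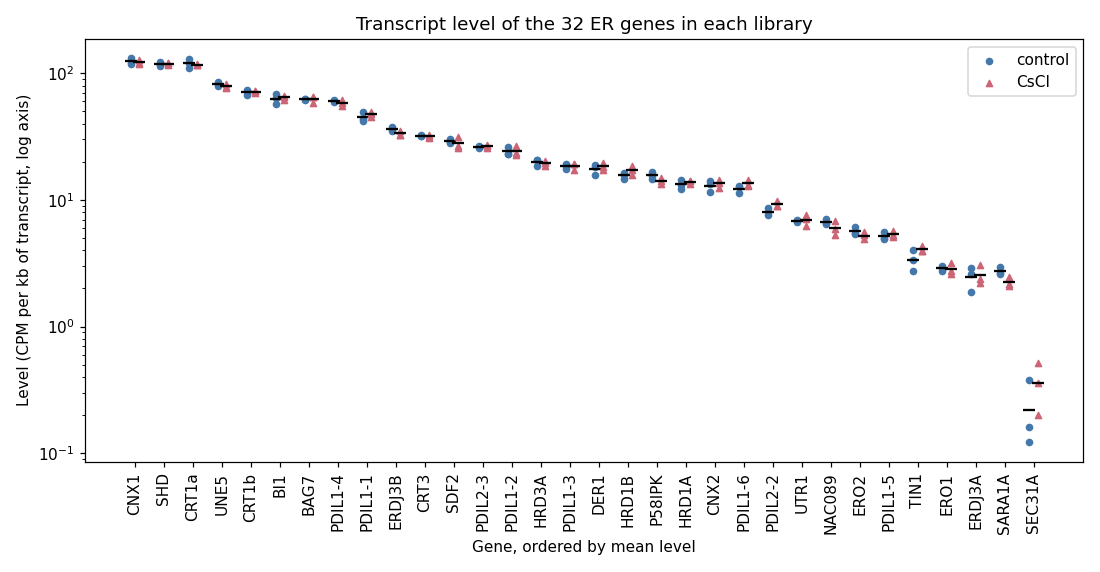
Transcript level in CPM per kb of transcript (log y axis) of the 32 genes in order of their mean; points are single libraries (circles control, triangles CsCl, 3 each) and black bars are group means. The order runs from CNX1 at 123 to SEC31A at 0.289 CPM per kb. The range of the triangles overlaps that of the circles at all but 3 genes.

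Among the lectin chaperones, 0 of 5 genes were past the edgeR test (0 had an unadjusted p below 0.05, DESeq2 called 0 and limma-voom 0). CNX1 (AT5G61790), the main calnexin gene, had 267, 260.1 and 288 CPM in the control libraries and 276, 261 and 262 CPM with CsCl. The groups overlapped, and CsCl differed from control by -0.028 ± 0.060 on the log2 scale (SE), with an adjusted p of 0.879 by edgeR. CRT1a (AT1G56340), a calreticulin that binds calcium and folding glycoproteins, had 224, 203 and 239.6 CPM in control and 218, 217 and 215 CPM with CsCl, so that the CsCl libraries lay inside the control range. Its paralog CRT1b (AT1G09210) stood at 157 ± 7.30 and 157 ± 3.29 CPM. CRT3 (AT1G08450), a plant-specific calreticulin known for folding the immune receptor EFR, had 52.3, 52.0 and 51.8 CPM in control and 50.7, 50.1 and 52.9 CPM with CsCl. CNX2 (AT5G07340), the second calnexin gene, stood at 28.0 ± 2.72 and 29.1 ± 2.00 CPM. The 95% intervals of the 5 genes lay between 0.886-fold (CRT1a) and 1.18-fold (CNX2). CNX1 made up 90.6 ± 0.534% of the length-scaled calnexin transcripts in control and 90.03 ± 0.875% with CsCl, and CRT1a 53.6 ± 1.51% and 53.1 ± 0.679% of the calreticulins.

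Of the 9 protein disulfide isomerases, which form and shuffle disulfide bonds, 0 were past the edgeR test, 1 had an unadjusted p below 0.05, DESeq2 called 0 and limma-voom 0. That gene was PDIL2-2 (AT1G04980), at 13.4, 12.7 and 14.3 CPM in control and 14.9, 16.4 and 15.02 CPM with CsCl. Every CsCl library was above every control library, a log2 difference of 0.20 ± 0.087, and its edgeR adjusted p was 0.318. PDIL1-6 (AT3G16110) was the other isomerase whose groups did not overlap, at 25.2, 22.7 and 25.7 CPM in control and 25.9, 28.6 and 26.4 CPM with CsCl (edgeR adjusted p = 0.451). The isomerase with the highest level per kb was UNE5 (AT2G47470), at 143, 136 and 132 CPM in control and 127, 130.3 and 138 CPM with CsCl, with overlapping groups. PDIL1-4 (AT5G60640) stood at 133 ± 2.88 and 129 ± 6.38 CPM and PDIL1-1 (AT1G21750), the classical form, at 90.5 ± 7.29 and 94.9 ± 3.64 CPM. PDIL1-2 (AT1G77510), PDIL1-3 (AT3G54960) and PDIL2-3 (AT2G32920) had log2 fold changes of 0.0088, 0.0057 and 0.029, and PDIL1-5 (AT1G52260), the lowest of the family per kb of transcript, 0.047. Over the 9 genes the 95% intervals lay between 0.881-fold (UNE5) and 1.31-fold (PDIL2-2).

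The make-up of the isomerase transcripts was compared as the share of each gene in their length-scaled sum. UNE5 held 29.3%, 29.6% and 28.7% in control and 27.5%, 27.9% and 28.5% with CsCl, so that every CsCl library was below every control library by a mean of 1.21 percentage points. PDIL2-2 held 2.87 ± 0.198% in control and 3.28 ± 0.205% with CsCl, with every CsCl library above every control library. Each of these had an exact two-sided permutation p of 0.10, the smallest that 3 against 3 allows, and an adjusted p of 0.75 over the 15 shares tested in the 5 families. The other 13 shares had exact p-values from 0.20 to 1. With 0.10 as its smallest possible p, this test could not have placed any share past 0.05.

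**Figure D4:**
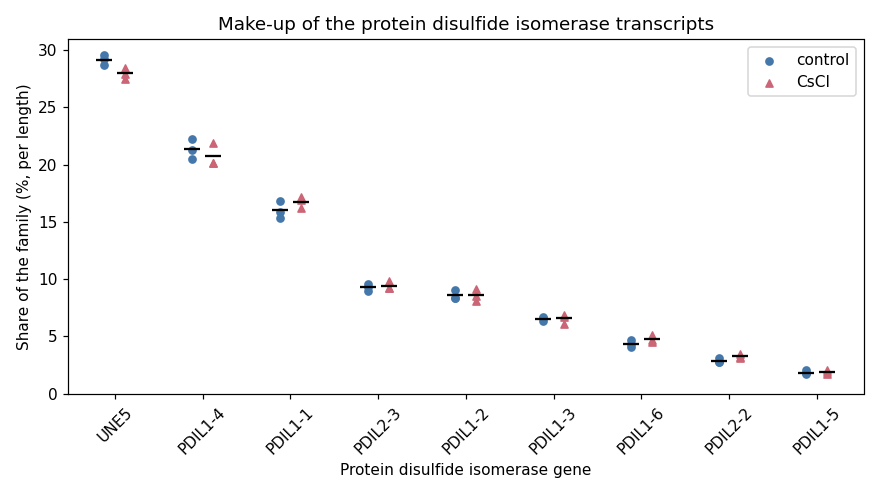
Share of each of the 9 protein disulfide isomerase genes in their length-scaled sum (y axis, %), with points for single libraries (circles control, triangles CsCl, 3 each) and black bars for group means. UNE5 is at 29.2% in control and 28.0% with CsCl, and the order of the family by mean share is the same in both groups.

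The ER oxidoreductins pass electrons from the isomerases to oxygen. ERO1 (AT1G72280) had 5.48, 4.99 and 5.23 CPM in control and 5.71, 4.98 and 4.68 CPM with CsCl. ERO2 (AT2G38960) had 11.8, 10.6 and 10.4 CPM in control and 10.09, 10.7 and 9.39 CPM with CsCl. Both pairs of groups overlapped (edgeR adjusted p = 0.940 for ERO1 and 0.634 for ERO2), and the 95% intervals ran from 0.797-fold to 1.20-fold for ERO1 and from 0.792-fold to 1.07-fold for ERO2.

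The ER HSP90 gene SHD (AT4G24190), whose product is needed for CLAVATA signalling in the shoot meristem, had 359, 345 and 374 CPM in control and 365, 350.2 and 365 CPM with CsCl. Its log2 fold change was 0.0032 ± 0.057 (edgeR adjusted p = 0.986), with a 95% interval from 0.920-fold to 1.09-fold. The J proteins bring clients to BiP and start its ATP hydrolysis. P58IPK (AT5G03160) had 27.4, 25.9 and 29.4 CPM in control and 24.8, 23.5 and 26.1 CPM with CsCl, with 1 CsCl library inside the control range (log2 fold change -0.15 ± 0.075, edgeR adjusted p = 0.373). ERDJ3B (AT3G62600) had 60.1, 55.8 and 57.7 CPM in control and 56.1, 52.6 and 52.4 CPM with CsCl, a log2 difference of -0.11 ± 0.060 (edgeR adjusted p = 0.449). SDF2 (AT2G25110), which works in a complex with ERDJ3B, stood at 43.0 ± 1.79 and 41.3 ± 4.53 CPM. ERDJ3A (AT3G08970), also called TMS1 and needed for pollen tubes in the heat, varied most of this role, with 3.96, 5.48 and 6.20 CPM in control and 4.66, 5.04 and 6.47 CPM with CsCl. Its 95% interval, from 0.797-fold to 1.36-fold, was the widest of the 5 genes.

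In ER-associated degradation, HRD1A (AT3G16090) and HRD1B (AT1G65040) encode the membrane ubiquitin ligases. HRD1B had 37.1, 34.9 and 39.0 CPM in control and 37.1, 43.7 and 41.0 CPM with CsCl, overlapping groups with a log2 difference of 0.14 ± 0.073 (edgeR adjusted p = 0.435). HRD1A stood at 29.3 ± 2.51 and 30.5 ± 0.804 CPM, and its share of the length-scaled pair was 45.9 ± 3.14% in control and 44.7 ± 2.25% with CsCl. HRD3A (AT1G18260), the partner that receives clients, had 50.3, 50.4 and 45.3 CPM in control and 47.3, 49.7 and 45.3 CPM with CsCl. DER1 (AT4G29330), a Derlin of the ER membrane, stood at 25.8 ± 2.55 and 27.0 ± 1.71 CPM. The 4 genes together had 141 ± 4.01 CPM in control and 146 ± 3.77 CPM with CsCl, and their 95% intervals lay between 0.883-fold (HRD3A) and 1.22-fold (HRD1B).

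Among the other ER stress targets the estimates spread more widely, and 2 of the 7, SARA1A and SEC31A, were below 5 CPM. TIN1 (AT5G64510), a gene named for its induction by tunicamycin, had 4.63, 6.86 and 5.64 CPM in control and 7.35, 6.64 and 6.67 CPM with CsCl. The groups overlapped through control replicate 2, and the log2 fold change was 0.27 ± 0.15 (edgeR adjusted p = 0.436) with an interval up to 1.50-fold. SEC31A (AT1G18830), a COPII coat gene, had 42, 18 and 14 counts in control and 22, 42 and 79 counts with CsCl. The highest control library equalled the middle CsCl library in counts, and the interval of its fold change, from 0.868 to 3.16, overlapped that of BIP3, from 2.24 to 5.55. Its log2 fold change of 0.73 was 1.36 without control replicate 1, 0.43 without control replicate 3 and 0.34 without CsCl replicate 3, and lay from 0.54 to 0.99 with each of the other libraries left out (edgeR adjusted p from 0.131 to 0.863 over the 6). SARA1A (AT1G09180), a small GTPase gene of the same coat, had 71, 64 and 66 counts in control and 50, 63 and 72 counts with CsCl. In CPM these were 2.16, 1.93 and 1.94 CPM against 1.54, 1.80 and 1.59 CPM, so that it was the 1 gene of the 32 with every CsCl library below every control library (edgeR adjusted p = 0.597).

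BAG7 (AT5G62390), an ER-resident co-chaperone, had 127, 126 and 123 CPM in control and 117, 131 and 131 CPM with CsCl. BI1 (AT5G47120), a membrane protein that restrains cell death and the highest of this role per kb, had 82.4, 74.9 and 89.7 CPM in control and 85.0, 80.9 and 86.1 CPM with CsCl. The groups of both genes overlapped. UTR1 (AT2G02810), an ER nucleotide sugar transporter, stood at 9.17 ± 0.139 and 9.35 ± 0.891 CPM. NAC089 (AT5G22290), a membrane-bound transcription factor linked to cell death under ER stress, stood at 10.3 ± 0.515 and 9.22 ± 1.18 CPM (log2 fold change -0.16 ± 0.11, edgeR adjusted p = 0.556).

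The inducible genes next to this machinery gave other values. BIP3 (AT1G09080) had 12, 20 and 16 counts in control and 48, 65 and 78 counts with CsCl, and rose 3.51-fold (log2 fold change 1.81 ± 0.31 SE; edgeR adjusted p = 0.00586). NAC103 (AT5G64060), a transcription factor gene, had 18, 16 and 18 counts in control and 46, 42 and 72 counts with CsCl, and rose 2.70-fold (log2 fold change 1.43 ± 0.30 SE; edgeR adjusted p = 0.0235). NAC103 lost its call with the replicate block (adjusted p = 0.0538) and when any library other than control replicate 1 was left out, where the adjusted p reached 0.136. Its log2 fold change stayed from 1.32 to 1.53 over all alternatives. The lower bounds of their 95% intervals, 1.16 for BIP3 and 0.79 for NAC103 on the log2 scale, were above the upper bound of 31 of the 32 genes, all except SEC31A. The constitutive chaperone genes BIP1 (AT5G28540) and BIP2 (AT5G42020) stood at 279 ± 13.4 and 275 ± 16.2 CPM and at 200.5 ± 13.8 and 199 ± 6.25 CPM. BZIP60 (AT1G42990), counted over all its splice forms, stood at 31.7 ± 2.11 and 29.5 ± 0.911 CPM (edgeR adjusted p = 0.546). Every CsCl library of BZIP60 was below every control library, as for 9.75% of all tested genes.

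The steps before and after folding were followed in 5 further lists with 79 genes, of which 77 were tested. Other ER folding enzymes had 0 of 10 past the edgeR test, translocation and signal peptidase 0 of 19, N-glycosylation and glycan trimming 0 of 16, and the COPII coat with the retrieval receptors for escaped ER proteins 0 of 16, in either direction. At an unadjusted p under 0.05 these 4 lists had 1, 0, 1 and 1 genes, and DESeq2 and limma-voom called 0 in each. Over the 5 lists 1 of 77 genes was past the edgeR test, against 2.16% of all tested genes. At an unadjusted p under 0.05 there were 4 of 77, against 14.4% of all tested genes. In the list of other ER-associated degradation genes 1 of 16 was higher and 0 lower, and DESeq2 and limma-voom each called 1. This was RMA1 (AT4G03510), a membrane-anchored ubiquitin ligase gene, with 7.55, 9.21 and 8.78 CPM in control and 10.9, 12.3 and 12.3 CPM with CsCl. Its groups did not overlap (log2 fold change 0.48 ± 0.11, edgeR adjusted p = 0.0329), and the call was lost without control replicate 1 or 3 or CsCl replicate 2 or 3, where the adjusted p reached 0.167. The log2 fold change stayed from 0.40 to 0.53 over all alternatives. The median log2 fold changes of the 5 lists ran from -0.027 for translocation to 0.056 for other ER-associated degradation.

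The libraries held 32075069 to 44108369 counts. Over all 21005 tested genes 177 were higher and 277 lower, or 198 and 180 when scaled by total counts alone. Between 65.5% and 73.4% of the values from 1 to 50 were even numbers in each library, as when both mates of a pair are counted. With all counts halved, 0 of the 32 genes were called as well. Markers of both organs of a whole plant were present. Of 13 tested root markers 5 were lower with CsCl, against 1.32% of all tested genes. The summed level of the root markers was 5951 to 6292 CPM in control and 4552 to 5124 CPM with CsCl. In some library 1 of 14 root markers was at 0. Most of that sum was PYK10, a beta-glucosidase of root ER bodies, at 5788 ± 171 CPM in control and 4462 ± 299 CPM with CsCl. The root marker ESB1, at 0.311 ± 0.102 and 0.608 ± 0.0598 CPM, had every CsCl library above every control library (edgeR adjusted p = 0.289). Of 10 leaf markers 0 were past the edgeR test (2 had an unadjusted p below 0.05, DESeq2 called 0 and limma-voom 0). Their summed level was 68669 to 79385 CPM in control and 65769 to 70496 CPM with CsCl. All 10 had a log2 fold change below 0, with a median of -0.075. The part of this shift in the values of the 32 genes was not tested. The labels do not say that samples of 1 group were grown apart, so the spread that the p-values rest on may be technical.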

How the data were processed

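Each deposited file holds the authors' raw, unnormalized counts of 1 library by gene. Without versions, the TAIR10 build, STAR, featureCounts, FastQC and edgeR are named in the submitters' processing notes. How featureCounts was set (strand, multi-mapped reads, annotation release) is not given in the sources used here, and the libraries came from a stranded kit, per the labels' protocols. Counts of all 33977 IDs were fitted with edgeR 4.0.16 in R 4.3.3: filterByExpr kept 21005 genes, TMM gave factors of 0.961 to 1.03, and the quasi-likelihood fit had the group as its only term, with Benjamini-Hochberg adjustment over all tested genes and a threshold of 0.05. SEs come from the unshrunk coefficient and its F statistic, and 95% intervals use the t distribution of the fit. The smallest fold that would pass takes the largest p past the threshold (0.00107). CPM use TMM-scaled library sizes. The fit was tested on simulated data.

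The 32 genes, the gene lists and the tests were chosen with earlier results of these data known. Named genes were all 32, up to 2 genes per list and direction past the test, BIP1, BIP2, BIP3, NAC103 and BZIP60. Values in every library were fixed for the genes with an unadjusted p under 0.05, the most abundant of each role and those under 5 CPM; the others shown in that way were chosen after their values were seen. Names, transcript lengths and promoters came from RefSeq's TAIR10.1, in which all 32 loci were found; gene starts are the outermost annotated ones. No protein sequences were used. Transcripts were compared with BLAST 2.17.0: CNX1 with CNX2, and PDIL1-2 with AT3G62510 (0.585 CPM), share a stretch of 100 bases at 95% identity or more, as CRT1a does with AT1G56390, so reads there are uncertain. Between 24 and 97 bases of 5 genes (PDIL1-6, UNE5, ERDJ3A, P58IPK and BAG7) overlap a gene on the other strand.

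Libraries of the same group were not duplicates (chi-square per gene of 6.24 to 12.7). Alternatives were RLE factors, total counts only, no filter, a filter of 1 CPM in 3 libraries, DESeq2 1.42.0, limma-voom (limma 3.58.1), the replicate number as a block, halved counts and each library left out. A promoter window of 500 bases was added after seeing the data.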

Additional observations from a re-analysis of the deposited data

How the results depend on the processing

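Over all 14 alternative fits, 0 of the 32 genes were called higher and 0 lower. The median log2 fold change of the 32 was 0.046 when scaled by total counts alone, where the median of all genes was 0.044. Fold changes near 0 turned sign with total counts alone for CNX1 (0.011), CRT1a (0.0032), CRT3 (0.017), ERO1 (0.0043), BIP1 (0.017) and BIP2 (0.029), and with no filter on low counts for CRT1b (-0.0017) and SHD (-0.0017). The cause was not tested. With 1 library left out, the count of the 32 genes whose groups do not overlap was 4 to 10 (fewer samples overlap less often). The share of all tested genes at these settings is not given, so these counts are not read as a result. RMA1's list had 0 to 1 higher with 1 library left out. The log2 fold changes that then turned sign ran from -0.063 to 0.012 (CNX1), -0.025 to 0.11 (CNX2), -0.10 to 0.018 (CRT1a), -0.039 to 0.027 (CRT1b), -0.070 to 0.075 (PDIL1-2), -0.036 to 0.058 (PDIL1-3), -0.0017 to 0.10 (PDIL1-5), -0.12 to 0.025 (ERO1), -0.030 to 0.029 (SHD), -0.11 to 0.20 (ERDJ3A), -0.012 to 0.12 (DER1), -0.016 to 0.063 (BAG7), -0.040 to 0.091 (BI1), -0.035 to 0.098 (UTR1), -0.073 to 0.014 (BIP1) and -0.071 to 0.018 (BIP2).

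The summed CPM ratio stayed between 0.976 and 1.02. Under the replicate block, 0 of the 32 were called higher and 0 lower, the median was 0.0062, and among named genes NAC103 alone lost its call (log2 fold change 1.43). Same-numbered samples did not deviate together (correlations -0.11, 0.032 and -0.048). With 3 libraries per group, these values cannot show whether same-numbered samples were grown or handled together. Motif counts were 7 for ERSE-I and 6 for UPRE with the window of 500 bases, against 0.51% and 3.06% of coding genes. SEC31A and SARA1A had the fewest counts of the 32 genes, and the control libraries of SEC31A varied by 62.9% (coefficient of variation).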

Other observations

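Within the control group, replicate 2 was the lowest of the 3 libraries for 16 of the 32 genes, among them CNX1, CRT1a, CRT1b, PDIL1-1, SHD and BI1. Over all tested genes it was the lowest for 32.2%. Replicate 3 was the highest control library for 12 of the 32 and the lowest for 11. It was the lowest for 34.3% of all tested genes. Among the 10 genes with ERSE-I or UPRE letters it was the highest for 6 and the lowest for 2. The share of all genes for which it was the highest is not given. These counts were noticed in the data, compare libraries of 1 group and were not tested.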
